A study of Homo sapiens with 19 samples.

Results

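UGT2B4, UGT2B7, UGT2B10, UGT2B11 and UGT2B15 are the UGT2B glucuronosyltransferases examined here. They were chosen by gene symbol from 78894 genes in the count table, by a rule that uses no measured value, and all 5 had a row. UGT2B enzymes sit in the membrane of the endoplasmic reticulum and join glucuronic acid from UDP-glucuronate to small lipophilic molecules, which can then leave the cell in bile or blood. In liver they clear bile acids, steroid hormones and many drugs, and their genes lie side by side with closely related copies. UGT2B4 conjugates bile acids and catechol estrogens, UGT2B7 conjugates morphine and many other drugs, UGT2B10 attaches glucuronic acid to the nitrogen of amines such as nicotine, and UGT2B15 conjugates androgens and hydroxylated benzodiazepines. UGT2B11 is the least studied of the group.

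RNA was sequenced from HepaRG, a human hepatic carcinoma line that can form hepatocyte-like and biliary-like cells and was differentiated before transfection. The 19 libraries form 7 groups in 2 batches named in the labels. Batch 1 holds a negative control siRNA (siNC), an ADAR siRNA (siADAR) and an ADARB1 siRNA (siADARB1), with 3 libraries each and every siRNA at 20 nM. Batch 2 holds its own siNC controls at 20 nM (3 libraries), interferon alpha at 1000 U/mL (IFNa, 2 libraries), BX795 at 1 µM (3 libraries) and BX795 at 1 µM with the ADAR siRNA at 20 nM (2 libraries). The sources used here do not state if cells given IFNa or BX795 by itself were transfected with the control siRNA. ADAR and ADARB1 are adenosine-to-inosine RNA editing enzymes, and BX795 inhibits TBK1 and other kinases. Each target was lowered with 1 siRNA, so an effect of the target and an effect of that oligonucleotide cannot be told apart. Whether the replicates of a group came from different cultures is not in the labels, so p-values measure only the spread between these libraries.

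Libraries of batch 1 were deeper than those of batch 2, with totals of 42651970 to 77103703 counts against 13080852 to 34720016. ADAR fell by 2.01 ± 0.05 (SE) on the log2 scale after its siRNA in batch 1, and ADARB1 fell by 1.59 ± 0.06 after its own. ADARB1 also fell by 0.26 ± 0.06 after the ADAR siRNA. All 24 hepatocyte markers were detected in every group, among them ALB. For APOA2, detection in batch 2 rested on few counts, 5 to 21 per group. Biliary and progenitor markers were present too. Their list of 12 summed to 545 to 592 CPM (counts relative to the library's total) in the batch 1 controls. In the batch 2 controls the sum was 328 to 374 CPM. EPCAM, from the same list, was at 0 in 6 of the 7 groups. Libraries of batch 2 also differed in a trend with GC content (the share of G and C bases in a transcript), which bears on the UGT2B values and is given beside them.

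The members lie in 1 stretch of chromosome 4 that spans 0.88 Mb in GRCh38.p14, from 68646597 to 69526014. In order, they are UGT2B15 (ENSG00000196620, 68646597 to 68670652, minus strand), UGT2B10 (ENSG00000109181, 68815994 to 68832023, plus strand), UGT2B7 (ENSG00000171234, 69051375 to 69112987, plus strand), UGT2B11 (ENSG00000213759, 69199951 to 69224984, minus strand) and UGT2B4 (ENSG00000156096, 69480165 to 69526014, minus strand). RefSeq promoter windows of 250 bases before to 50 after the start (GRCh38.p14) were at hand for 4 members. They are printed because these 4 windows, which belong to genes with very different levels, carry the same short element at nearly the same place. Capitals mark that element, GTTANNTTTTAAC. The windows are chr4:68670603-68670902 (minus strand, UGT2B15), chr4:68815744-68816043 (plus strand, UGT2B10), chr4:69096224-69096523 (plus strand, UGT2B7) and chr4:69214699-69214998 (minus strand, UGT2B11), each read 5′ to 3′ along its gene.
UGT2B15: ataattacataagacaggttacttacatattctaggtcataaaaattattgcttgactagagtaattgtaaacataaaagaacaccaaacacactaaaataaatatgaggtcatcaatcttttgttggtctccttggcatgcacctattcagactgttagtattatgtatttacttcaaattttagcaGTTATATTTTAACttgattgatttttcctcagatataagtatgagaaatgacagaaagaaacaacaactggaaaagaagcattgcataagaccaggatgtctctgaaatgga
UGT2B10: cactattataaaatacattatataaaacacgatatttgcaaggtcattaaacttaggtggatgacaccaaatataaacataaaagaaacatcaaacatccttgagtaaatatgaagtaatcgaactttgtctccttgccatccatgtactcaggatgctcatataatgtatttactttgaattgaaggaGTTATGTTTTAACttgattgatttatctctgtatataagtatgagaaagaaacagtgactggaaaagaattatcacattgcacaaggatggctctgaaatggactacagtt
UGT2B7: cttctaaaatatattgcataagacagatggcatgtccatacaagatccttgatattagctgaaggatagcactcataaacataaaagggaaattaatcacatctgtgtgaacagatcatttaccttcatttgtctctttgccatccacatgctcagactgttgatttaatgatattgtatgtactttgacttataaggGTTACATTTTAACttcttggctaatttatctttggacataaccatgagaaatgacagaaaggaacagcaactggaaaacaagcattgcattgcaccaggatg
UGT2B11: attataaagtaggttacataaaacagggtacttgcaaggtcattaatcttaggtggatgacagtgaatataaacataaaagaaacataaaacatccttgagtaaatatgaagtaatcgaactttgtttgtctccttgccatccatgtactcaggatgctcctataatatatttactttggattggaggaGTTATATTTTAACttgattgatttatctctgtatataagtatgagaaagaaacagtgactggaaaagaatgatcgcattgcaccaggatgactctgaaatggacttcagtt

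The element began 62 bases before the start in UGT2B15, 61 in UGT2B10 and UGT2B11, and 52 in UGT2B7. Here the start is that of each promoter window. In UGT2B7 and UGT2B11 it lies inside the gene span given above and not at its edge. Searched on both strands, GTTANNTTTTAAC occurred in 16 of 35116 promoter windows (0.0456%), these 4 among them. The pattern was chosen after the sequences were seen, as the letters that the 4 windows share. Among further patterns searched, the nuclear receptor core AGGTCA lay in 3 of the 4 windows (13.8% of all windows), at 2 places in UGT2B15 and 1 each in UGT2B10 and UGT2B11. The C/EBP pattern TTGCNNAA (10.5% of all) lay after the start in UGT2B15 and UGT2B10 and 237 bases before it in UGT2B7. The forkhead pattern TGTTTAC lay in UGT2B15 (3.42%), and TATAAA in UGT2B10 and UGT2B11 (11.5%). The antioxidant response pattern TGACNNNGC lay in UGT2B10 and UGT2B11 (13.3%), where it overlaps AGGTCA. The HNF4 pattern CAAAGTCCA (0.384% of all) and the interferon-stimulated response element (3.57%) are not in these 4 windows. The windows of UGT2B10 and UGT2B11 were 90.1% identical, and those of the other pairs 61.5% to 69.5%. A match describes letters and not a bound site.

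UGT2B4 and UGT2B15 made up most of the measured UGT2B RNA. Levels are in CPM, counts relative to the library's total, with that total scaled by the trimmed mean of M-values (TMM), and genes are compared with each other only per kilobase of their longest coding transcript. In batch 1 controls the mean levels per kilobase were 252 for UGT2B4, 214 for UGT2B15, 36.9 for UGT2B7, 21.7 for UGT2B10 and 1.69 for UGT2B11. UGT2B4 stood above UGT2B15 in each of the 9 batch 1 libraries, by a log2 ratio per kilobase of 0.09 to 0.30. That gap is small, while each further step of the order was far wider than the spread of 1.4% to 9.09% (SD as a percent of the mean) among the controls. In batch 2 controls the order of the leading pair was the other way around. UGT2B15 had 13.9 and UGT2B4 had 11 CPM per kilobase, with a log2 ratio of UGT2B4 to UGT2B15 of -0.26, -0.38 and -0.40 in the 3 libraries. UGT2B7 followed at 3.37, UGT2B10 at 0.449 and UGT2B11 at 0.0787.

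All 5 transcripts were far lower in batch 2. The mean control level in CPM was 23.0 times higher in batch 1 for UGT2B4, 10.9 times for UGT2B7, 48.2 times for UGT2B10, 21.5 times for UGT2B11 and 15.4 times for UGT2B15. For comparison, UGT2A3, a neighbour in the same cluster, was 3.93 times higher, ALB 6.18 times, UGT1A1 2.64 times, and GUSB, the lysosomal enzyme that cleaves glucuronides, 1.2 times. Batch and culture cannot be told apart here, and no test was made between batches. In bulk RNA, fewer cells of a type and less RNA per cell cannot be told apart either. The depth that remained set what could be tested in batch 2: UGT2B10 had 3 to 26 counts per library and UGT2B11 had 1 to 16, and UGT2B11 did not pass the expression filter there. The plot of levels by library shows the step between batches and the smaller differences within each.

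**Figure D1:**
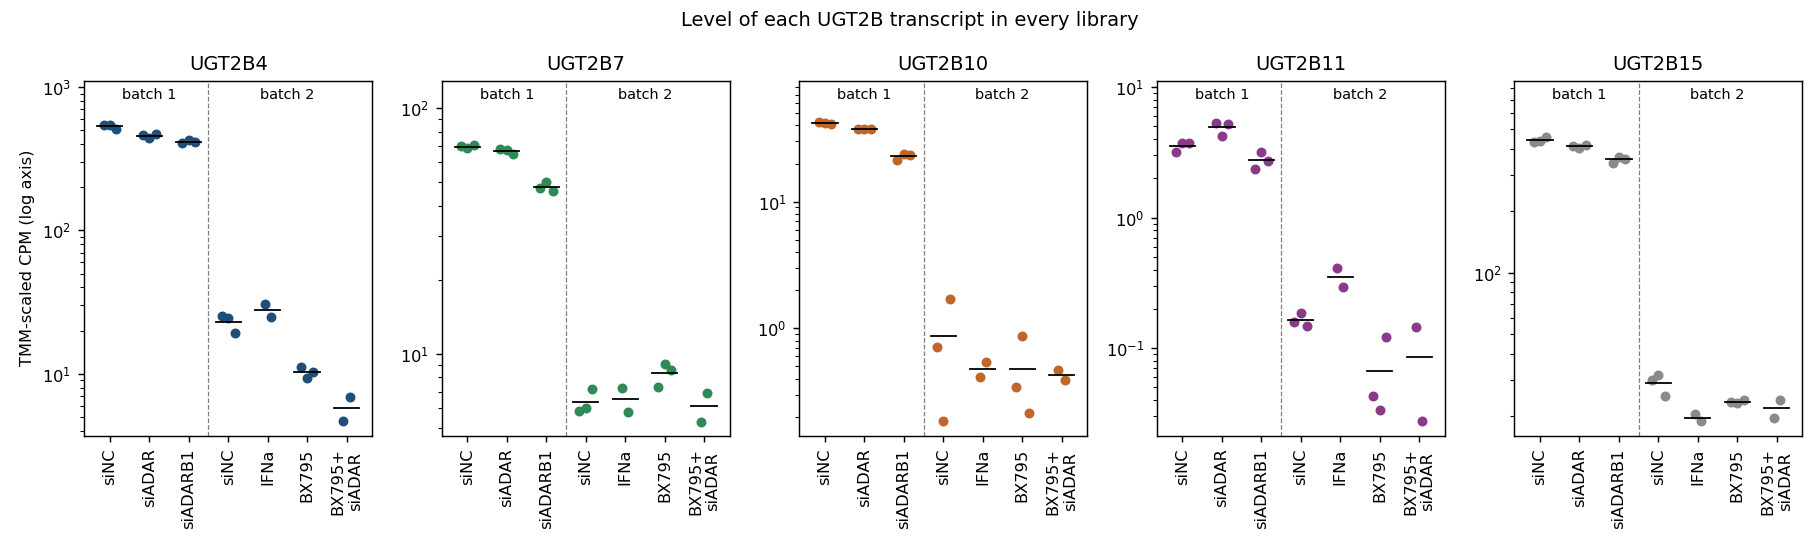
Level of each member in every library (points, TMM-scaled CPM on a log axis) by group, with the group mean as a bar and a dashed line between batches. UGT2B4 is at 511 to 542 CPM in the batch 1 controls and at 19.3 to 25.4 in the batch 2 controls, and its 2 libraries with BX795 and the ADAR siRNA are lowest, at 4.71 and 6.86.

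After the ADAR siRNA the called transcripts did not share a direction. UGT2B4 and UGT2B10 fell by 13.7% and 9.6%, UGT2B11 rose by 40.5%, and UGT2B7 and UGT2B15 did not pass the test. Of the 5 members 3 were called (1 higher, 2 lower) at an adjusted p below 0.05 (quasi-likelihood test of edgeR, Benjamini-Hochberg adjustment, used throughout), where 37.8% of all 21747 genes were called, 20.2% higher and 17.6% lower. A share of this size in so few genes is no result about the members as a set. Their median log2 fold change was -0.09, against -0.01 over all tested genes.

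For UGT2B4, the bile acid conjugating enzyme, the siNC libraries had 542, 540 and 511 CPM and the ADAR siRNA libraries 459, 438 and 468. The groups do not overlap, and the log2 fold change was -0.21 ± 0.04 (SE, adjusted p = 0.000841). UGT2B10, the amine conjugating enzyme, had 42.7, 42.1 and 40.7 CPM in the controls and 37.3, 37.6 and 37.6 after the ADAR siRNA, a log2 fold change of -0.15 ± 0.04 (adjusted p = 0.0191). Every treated library of UGT2B10 lay below every control, by a narrow margin. UGT2B11 had 3.16, 3.70 and 3.73 CPM in the controls and 5.35, 4.23 and 5.18 after the ADAR siRNA, so it was the 1 member that rose, by 0.49 ± 0.14 on the log2 scale (adjusted p = 0.0124).

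All 3 calls ended with 1 model over all 19 libraries, in which the adjusted p-values were 0.12 for UGT2B4, 0.572 for UGT2B10 and 0.0772 for UGT2B11, with log2 fold changes of -0.22, -0.16 and 0.48. The UGT2B10 call also ended without siNC replicate 1 (0.078), without siADAR replicate 1 (0.0562) and without siADAR replicate 3 (0.052). The UGT2B11 call ended without siNC replicate 1 (0.0588) and without siADAR replicate 1 (0.0565).

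UGT2B7 had 69.6, 68.6 and 70.5 CPM in the controls and 68.2, 67.2 and 64.6 after the ADAR siRNA (log2 fold change -0.05 ± 0.04, adjusted p = 0.36). UGT2B15 had 435, 439 and 459 CPM against 413, 407 and 422 (-0.09 ± 0.04, adjusted p = 0.0763). The libraries of neither gene overlapped, with the narrower gap in UGT2B7, between 68.2 and 68.6 CPM. UGT2B15 passed the test with DESeq2 (adjusted p = 0.0215) and with a GC correction (0.0131).

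The ADARB1 siRNA lowered 4 of the 5 transcripts. UGT2B10 fell by 45.4%, UGT2B7 by 31.8%, UGT2B4 by 22.0% and UGT2B15 by 19.9%, and UGT2B11 did not pass the test. Against this, 16.7% of all genes were called, 8.45% lower and 8.25% higher. The members' median log2 fold change was -0.37, against a median of all tested genes that rounds to 0. A fall of this kind was not particular to the members: the 24 hepatocyte markers had a median of -0.29, with 15 called lower and 1 higher. Members share sequence and a locus, so they are not independent of each other.

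UGT2B10 had 21.5, 23.7 and 23.4 CPM after the ADARB1 siRNA, against 40.7 to 42.7 in the controls (log2 fold change -0.87 ± 0.05, adjusted p = 2.07e-08). No library of either group came near the other. UGT2B7 had 47.0, 49.8 and 45.8 CPM against 68.6 to 70.5 (-0.55 ± 0.04, adjusted p = 4.69e-07). Its treated libraries too lay well below all controls.

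UGT2B4 had 404, 430 and 410 CPM, against 511 to 542 (-0.36 ± 0.04, adjusted p = 3.14e-05), and UGT2B15 had 344, 367 and 358, against 435 to 459 (-0.32 ± 0.04, adjusted p = 4.29e-05). Both pairs of groups are separate. UGT2B11 had 2.34, 3.17 and 2.72 CPM, which overlaps its control range of 3.16 to 3.73 (-0.37 ± 0.14, adjusted p = 0.105). The 4 calls were lower under each alternative that was run, and their adjusted p-values in the model over all 19 libraries were 0.0442 for UGT2B4, 0.000774 for UGT2B7, 0.00408 for UGT2B10 and 0.0138 for UGT2B15.

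Set directly against each other, the siRNAs gave different levels for all 5 transcripts. Every member was higher after the ADAR siRNA than after the ADARB1 siRNA, where 35.7% of all genes were called and 18.8% were higher. The log2 differences were 0.86 ± 0.14 for UGT2B11 (adjusted p = 0.000261), 0.73 ± 0.05 for UGT2B10 (2.68e-08), 0.50 ± 0.04 for UGT2B7 (2.44e-07), 0.23 ± 0.04 for UGT2B15 (0.000246) and 0.15 ± 0.04 for UGT2B4 (0.0119). No member's libraries overlapped between these groups. How many of all genes likewise had no overlap is not given here, so this is no result about the members as a set. The UGT2B4 call ended in the model over all 19 libraries (0.404), with the GC correction (0.0763), without siADAR replicate 3 (0.0588) and without siADARB1 replicate 1 (0.0592). Both siRNA groups were set against the same controls above, so those 2 sets of values are not independent.

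**Figure D2:**
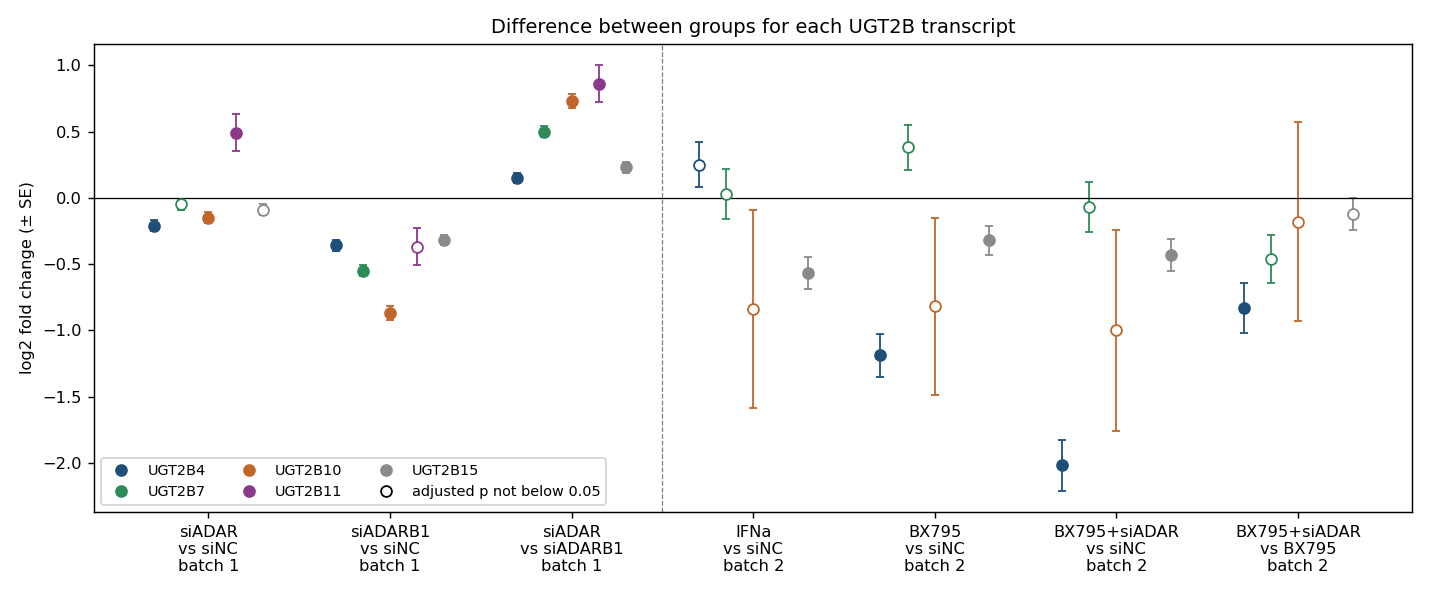
Log2 fold change with its SE for each tested member in 7 comparisons, filled where the adjusted p was below 0.05. After the ADARB1 siRNA the values run from -0.87 (UGT2B10) to -0.32 (UGT2B15), and in batch 2 UGT2B4 stands lowest with BX795, at -1.19, and with BX795 plus ADAR siRNA, at -2.02; UGT2B11 was not tested in batch 2.

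With IFNa, UGT2B15 was the 1 called member of 4 tested. It had 20.5 and 18.8 CPM with IFNa and 30.0, 31.6 and 25.1 in the batch 2 controls, a log2 fold change of -0.57 ± 0.12 (adjusted p = 0.0132). The groups do not overlap. Of all 20718 genes 22.7% were called, 10.9% lower and 11.9% higher, so 1 call in 4 members is near the background. Among other settings, the call ended without IFNa replicate 1 (adjusted p = 0.119) and without IFNa replicate 2 (0.0717), each of which leaves a single IFNa library that is assumed to vary like the other groups.

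UGT2B4 had 30.6 and 25.1 CPM with IFNa, which overlaps its controls at 25.4, 24.6 and 19.3 (0.25 ± 0.17, adjusted p = 0.292). UGT2B7 had 7.24 and 5.80 CPM against 5.85, 6.03 and 7.19 (0.03 ± 0.19, adjusted p = 0.917). Neither group of libraries stood apart. UGT2B10 had 16 and 15 counts with IFNa and 18, 3 and 23 in the controls, too few to show a difference (-0.84 ± 0.75, adjusted p = 0.438). UGT2B11, not tested, had 16 and 8 counts with IFNa (0.411 and 0.292 CPM) and 4, 3 and 2 in the controls (0.148 to 0.187 CPM), without overlap but near the lower limit of detection. For scale, all 20 interferon stimulated genes listed were called higher with IFNa, by a median of 4.92 on the log2 scale, and all 20 were also higher after the ADAR siRNA, by a median of 2.32.

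Of the 4 members tested with BX795, UGT2B4 had the lowest log2 fold change. UGT2B4 had 11.2, 9.34 and 10.3 CPM with BX795, against 25.4, 24.6 and 19.3 in the controls, and so fell by 56.1% (log2 fold change -1.19 ± 0.16, adjusted p = 0.000504). Every BX795 library had far less than every control, and the call held under each alternative that was run. Of the 4 tested members 2 were called lower, where 42.1% of all genes were called and 21.9% were lower.

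UGT2B15, the androgen conjugating enzyme, had 23.4, 23.2 and 23.8 CPM with BX795, against 30.0, 31.6 and 25.1 (-0.32 ± 0.11, adjusted p = 0.0386). The 3 treated libraries are close together and just below the lowest control. Among other settings, this call ended with no expression filter (adjusted p = 0.371) and when any single library other than siNC replicate 3 was left out: 0.0692 without siNC replicate 1, 0.147 without siNC replicate 2, and 0.0811, 0.11 and 0.0928 without BX795 replicates 1, 2 and 3. UGT2B7 had 7.28, 9.10 and 8.57 CPM, against 5.85, 6.03 and 7.19, so its BX795 libraries lay above the controls. Its log2 fold change of 0.38 ± 0.17 missed the threshold (adjusted p = 0.0846), passed it in the model over all 19 libraries (0.00857) and with no filter (0.0475), and was -0.02 ± 0.15 with the GC correction. UGT2B10 had 8, 26 and 7 counts (-0.82 ± 0.67, adjusted p = 0.347), and UGT2B11 had 1, 1 and 4.

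With BX795 and the ADAR siRNA together, UGT2B4 was lower again. It had 4.71 and 6.86 CPM and so fell by 75.3% from the batch 2 controls (log2 fold change -2.02 ± 0.19, adjusted p = 5.05e-05), and the call held under each alternative. Both libraries also lay below the 3 with BX795 alone. UGT2B15 had 19.6 and 23.9 CPM (-0.43 ± 0.12 against siNC, adjusted p = 0.0206), below its 3 controls. That call ended in a fit of only the 2 groups (0.0685), with no filter (0.217), without siNC replicate 2 (0.0648) and without BX795 with siADAR replicate 1 (0.19); where that leaves 1 library in an arm, it is assumed to vary like the other groups. Of 4 tested members 2 were called lower, where 33.0% of all genes were called and 16.0% were lower.

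UGT2B7 had 5.28 and 6.94 CPM with both agents, within reach of its controls (-0.07 ± 0.19, adjusted p = 0.797). UGT2B10 had 13 and 14 counts (-1.0 ± 0.76, adjusted p = 0.334), and UGT2B11 had 4 and 1.

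UGT2B4 was 43.9% lower with BX795 and the ADAR siRNA than with BX795 alone (log2 fold change -0.83 ± 0.19, adjusted p = 0.0319). Since it is not stated if the BX795 cells had a control siRNA, the ADAR siRNA and transfection itself cannot be told apart in this comparison. Here 3.66% of all genes were called, 2.17% lower and 1.49% higher, and UGT2B4 was the 1 called member of 4 tested. Among other settings, the call ended when any single library of these groups other than BX795 with siADAR replicate 2 was left out, with adjusted p-values of 0.0966, 0.0618 and 0.10 without BX795 replicates 1, 2 and 3 and 0.286 without BX795 with siADAR replicate 1. UGT2B7 was lower in both libraries than in the 3 with BX795 alone, at -0.46 ± 0.18 (adjusted p = 0.236), and passed the test in the model over all 19 libraries (0.0297). The values for UGT2B15 (-0.12 ± 0.12, adjusted p = 0.705) and UGT2B10 (-0.18 ± 0.75, 0.946) did not differ beyond their error.

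The response of UGT2B4 to the ADAR siRNA was -0.21 ± 0.04 without BX795 in batch 1 and -0.83 ± 0.19 with it in batch 2. In a fit of all 19 libraries the difference between these responses was -0.59 ± 0.17 (adjusted p = 0.0814), and no member passed, where 3.42% of all genes did. The unadjusted p of edgeR's quasi-likelihood test across all genes was below 0.05 for 2 members, UGT2B4 and UGT2B7 (-0.38 ± 0.15, adjusted p = 0.237). DESeq2 called 1 member, UGT2B4 (adjusted p = 0.00404), and so did edgeR's test with the GC correction (0.0244), with no filter (0.00224) and without BX795 with siADAR replicate 2 (0.0087). BX795 and batch cannot be told apart in this contrast, and the 23.0-fold difference in control level of UGT2B4 lies between its arms. The batch 1 arm has a control siRNA, while for the BX795 cells of the batch 2 arm none is stated, so transfection may differ between the arms too.

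The make-up of the UGT2B RNA, which does not depend on how libraries are scaled, stood apart from the batch 2 controls with BX795 and with IFNa, here as a description with no test. As a share of the summed CPM per kilobase of all 5 members, UGT2B4 held 40.2%, 38.6% and 35.3% in the batch 2 controls and 25.8%, 21.3% and 23.2% with BX795. It held 15.1% and 17.5% with BX795 and the ADAR siRNA. With IFNa it held 50.8% and 48.8%. These ranges of UGT2B4 do not overlap.

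UGT2B15 stood the other way, with 48.1%, 50.2% and 46.4% in the controls, 54.5%, 53.4% and 54.4% with BX795 and 63.9% and 61.7% with both agents, and it held 34.4% and 37.0% with IFNa. The log2 ratio of UGT2B4 to UGT2B15 was -0.40 to -0.26 in the controls, 0.40 and 0.56 with IFNa, -1.33 to -1.08 with BX795, and -2.08 and -1.82 with both. UGT2B7 reached the level of UGT2B4 with BX795: its log2 ratio to UGT2B4 was -1.96 to -1.27 in the controls, -0.47 to 0.12 with BX795 and 0.17 and 0.32 with both agents. The summed level was 26.1 to 30.3 CPM per kilobase in the controls, 20.6 to 21.1 with BX795 and 14.8 and 18.7 with both, while the IFNa libraries, at 24.5 and 28.7, overlapped the controls. In batch 1 the shares lay closer together: UGT2B4 held 46.4% to 48.8% in the controls, 45.1% to 46.1% after the ADAR siRNA and 48.1% to 48.7% after the ADARB1 siRNA. The share of UGT2B10 was 4.02% to 4.19% in the controls and 2.82% to 2.99% after the ADARB1 siRNA.

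**Figure D3:**
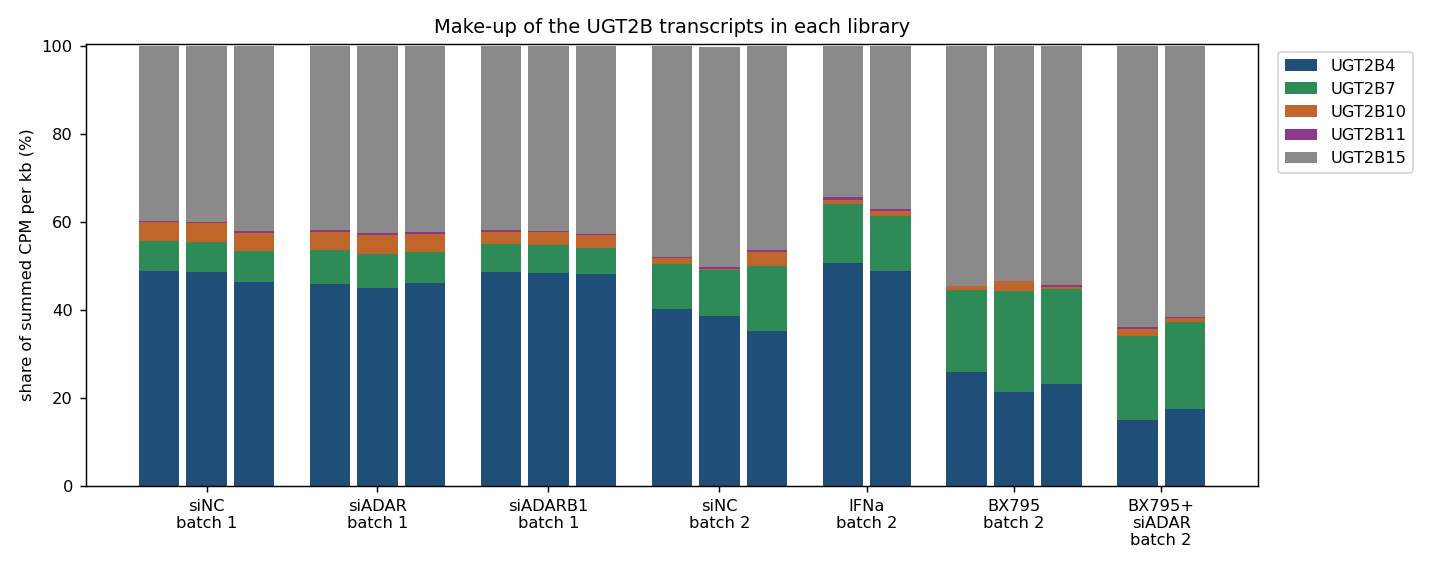
Share of each member in the summed CPM per kilobase of the 5 members, 1 bar per library. UGT2B4 takes 35.3% to 40.2% in the batch 2 controls, 48.8% and 50.8% with IFNa, 21.3% to 25.8% with BX795 and 15.1% and 17.5% with BX795 and the ADAR siRNA, while UGT2B15 takes 61.7% and 63.9% in the last group.

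GC content moved with the groups of batch 2. The median log2 level of transcripts above 60% GC minus that of transcripts below 40% GC, each relative to the batch mean of its gene, was 0.26, 1.02 and 0.83 in the batch 2 controls. It was -0.39 and 0.08 with IFNa, -0.58 to -0.19 with BX795, and -0.52 and -0.01 with both agents, and it was -0.09 to 0.14 over all of batch 1. UGT2B transcripts are GC poor, from 37.9% (UGT2B11) to 39.4% (UGT2B7), with UGT2B4 at 40%. With each library's trend on GC removed as an offset, the log2 fold changes of the members against the batch 2 controls were lower: for UGT2B15 -0.93 with IFNa, -0.74 with BX795 and -0.85 with both agents (adjusted p = 0.000677, 0.00065 and 0.00041), and for UGT2B4 -1.57 with BX795 and -2.40 with both. UGT2B4 with IFNa turned to -0.08 and UGT2B7 with IFNa to -0.31, neither called. The comparison of both agents with BX795 alone moved little, at -0.83 ± 0.17 for UGT2B4. The part of GC content in these results was not tested further.

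**Figure D4:**
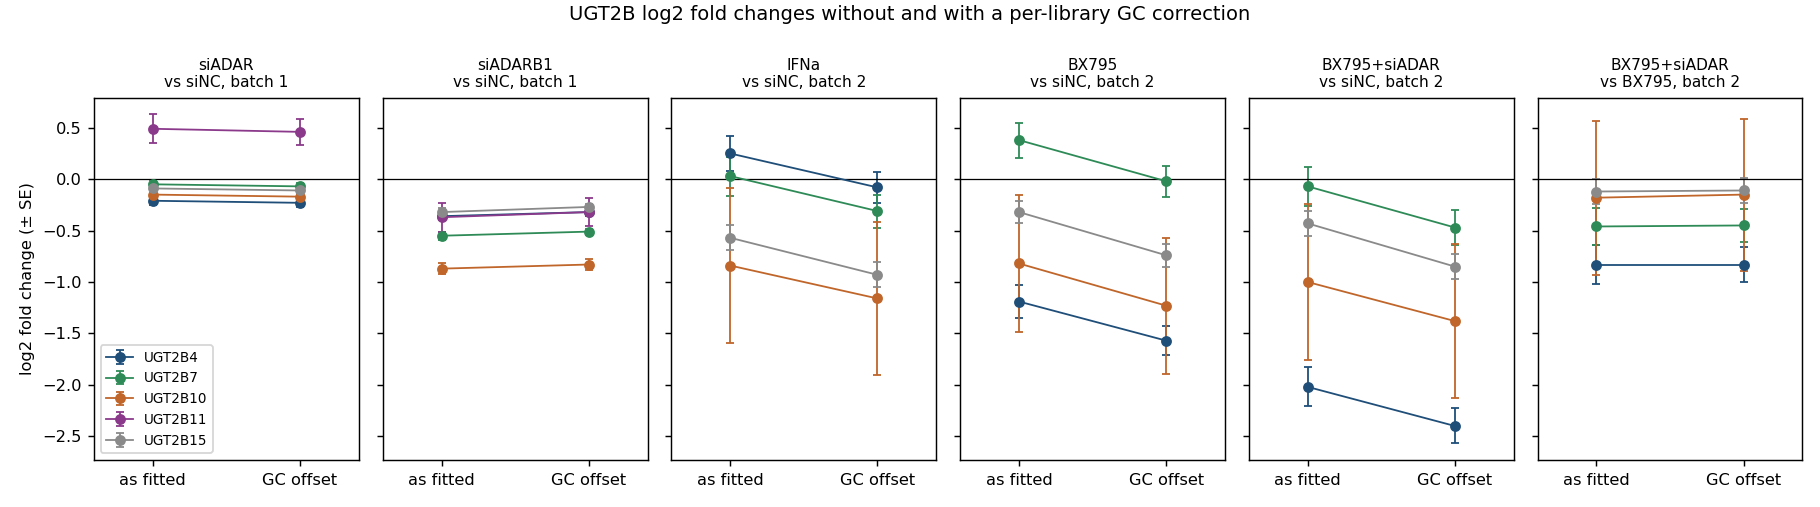
Log2 fold change with its SE of each tested member, as fitted and with a per-library GC offset, in 6 comparisons. The 3 comparisons with the batch 2 controls shift down, UGT2B15 with BX795 from -0.32 to -0.74 and UGT2B7 with BX795 from 0.38 to -0.02, while both batch 1 comparisons and that with BX795 alone stay within 0.05 of their values.

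Markers of cell types also moved with the groups. Of all genes, 20.2% were called higher and 17.6% lower after the ADAR siRNA, and 8.25% and 8.45% after the ADARB1 siRNA. The shares were 11.9% and 10.9% with IFNa, 20.2% and 21.9% with BX795, and 16.9% and 16.0% with both agents. After the ADAR siRNA the 24 hepatocyte markers summed to 68228 to 73136 CPM, against 88681 to 95304 in the batch 1 controls. Of these markers 15 were called lower and 3 higher (median log2 fold change -0.25). The 12 biliary and progenitor markers summed to 1075 to 1111 CPM, against 545 to 592, with 7 of 9 tested called higher and EPCAM at 0. KRT19 was the largest part of that sum, at a mean of 737 CPM, against 316 in the controls. With BX795 the biliary and progenitor markers summed to 208 to 211 CPM, against 328 to 374 in the batch 2 controls, with 3 of 8 tested called lower and 2 higher. With both agents they summed to 262 to 290, with 3 lower and 3 higher. After the ADARB1 siRNA hepatocyte markers summed to 80241 to 84334 CPM, with 15 called lower and 1 higher (median log2 fold change -0.29). Biliary and progenitor markers summed to 609 to 622 there. With BX795 the hepatocyte sum of 16826 to 17835 CPM lay within its control range of 15404 to 18737. Even so, 11 of 23 tested markers were called lower and 5 higher (median log2 fold change -0.58). APOB had a mean of 6526 CPM with BX795, against 3048 in the controls. ALB had 5620, against 6867, and HP 1088, against 2145, so few genes set this sum. With both agents the hepatocyte sum was 10371 to 13023, with 15 lower and 2 higher (median log2 fold change -1.14), and with IFNa 14442 to 14995, with 10 lower and 2 higher (median -0.51). The 12 mesenchymal markers summed to 4515 to 5142 CPM over batch 1 and 5115 to 7788 over batch 2. FN1 made up most of each sum, with group means of 4354 to 4868 CPM in batch 1 and 5473 to 6765 in batch 2. Of the 12 markers, 5 of 11 tested were called higher and 3 lower after the ADAR siRNA. With BX795 5 of 10 were lower and 1 higher (median -0.60), the lower ones including COL3A1 (-1.44 ± 0.19, adjusted p = 0.000414) and POSTN (-1.56 ± 0.12, 1.73e-05). The 8 immune and endothelial markers summed to 42.7 to 55.3 CPM over batch 1, 36.2 to 40.7 in the batch 2 controls, 37.2 to 40.1 with IFNa, 23.8 to 25.5 with BX795 and 20.2 to 21.6 with both agents. The part of cell make-up in the UGT2B values was not tested.

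Other genes of the UGT2 cluster did not share the members' pattern throughout. UGT2B17, a close copy of UGT2B15 that conjugates testosterone, had 5.0, 4.17 and 4.86 CPM in the batch 1 controls and 2.40, 3.10 and 2.47 after the ADAR siRNA (-0.81 ± 0.14, adjusted p = 0.00027). These libraries do not overlap. After the ADARB1 siRNA UGT2B17 was at -0.38 ± 0.13 (adjusted p = 0.0721), and it was lower after the ADAR than after the ADARB1 siRNA (-0.44 ± 0.14, 0.0241), where all 5 members were higher. It had 10 counts or fewer per library in batch 2, where it was not tested. UGT2A3 fell with the ADAR siRNA (-0.30 ± 0.05, adjusted p = 0.00017), did not pass after the ADARB1 siRNA (-0.14 ± 0.05, 0.0607), and rose with BX795 (0.33 ± 0.11, 0.0348). UGT2B28 had at most 4 counts in any group. Of UGT3A1 and UGT8, more distant relatives, UGT3A1 fell after the ADARB1 siRNA (-0.38 ± 0.09, adjusted p = 0.0118) and rose with BX795 (0.56 ± 0.20, 0.0464), and UGT8 rose with IFNa (0.74 ± 0.17, 0.0171) and with BX795 (0.51 ± 0.16, 0.0255).

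Counts of called genes in the lists that follow stand against 20.2% of all genes higher and 17.6% lower after the ADAR siRNA, 8.25% and 8.45% after the ADARB1 siRNA, 11.9% and 10.9% with IFNa, and 20.2% and 21.9% with BX795. Of the 7 UGT1A genes tested, which share the enzyme function but lie elsewhere, 4 rose and 2 fell after the ADAR siRNA and 3 fell after the ADARB1 siRNA. With BX795 3 rose, among them UGT1A6 (0.84 ± 0.10, adjusted p = 0.000199) and UGT1A1, the bilirubin conjugating enzyme (0.81 ± 0.11, 0.000551), and 1 fell. Genes of UDP-glucuronate supply were 3 lower and 1 higher of 4 after the ADAR siRNA: SLC35D1, which carries UDP-glucuronate into the endoplasmic reticulum, was at -0.44 ± 0.04 (adjusted p = 2.65e-07), UGP2 at -0.32 ± 0.04 (1.14e-05), UGDH, which makes UDP-glucuronate, at -0.24 ± 0.04 (9.66e-05) and PGM1 at 0.20 ± 0.04 (0.000874). After the ADARB1 siRNA 1 supply gene fell, UGDH (-0.28 ± 0.04, 8.16e-05), and 1 rose, PGM1 (0.27 ± 0.04, 0.000264). With BX795 1 fell, UGDH (-0.40 ± 0.10, 0.00833), and 1 rose, UGP2 (0.65 ± 0.11, 0.00163), and with IFNa PGM1 (0.32 ± 0.08, 0.0218) and UGP2 (0.42 ± 0.12, 0.0335) rose. Of the 4 exporters of glucuronides, 2 rose after the ADAR siRNA, and 3 fell and 1 rose after the ADARB1 siRNA, with ABCG2 at -0.90 ± 0.09 (adjusted p = 1.04e-05) and ABCC2 at -0.25 ± 0.03 (0.000116). GUSB did not pass after either siRNA (-0.01 ± 0.04 and 0.01 ± 0.04, adjusted p = 0.828 and 0.951) and fell with BX795 (-0.53 ± 0.10, adjusted p = 0.00268).

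In batch 1, more known regulators of UGT2B genes fell after the ADAR siRNA, and more UGT2B genes fell after the ADARB1 siRNA. After the ADAR siRNA 11 of 18 regulators were called lower and 0 higher (17.6% of all genes were lower), with a median of -0.31. HNF4A was at -0.67 ± 0.04 (adjusted p = 2.31e-08), NR1H4, the bile acid receptor, at -0.51 ± 0.04 (4.69e-07), CEBPB at -0.76 ± 0.03 (1.03e-09) and PPARA at -0.43 ± 0.04 (7.68e-07), while FOXA2 was at -0.12 ± 0.04 with an adjusted p of 0.05 after rounding. After the ADARB1 siRNA, where 4 members fell, 2 regulators were lower and 2 higher, and HNF4A (0.00 ± 0.04, adjusted p = 0.993), NR1H4 (-0.06 ± 0.04, 0.441) and FOXA2 (-0.05 ± 0.04, 0.566) did not pass. The 2 that fell were the xenobiotic receptors NR1I3 (-0.65 ± 0.14, 0.00485) and NR1I2 (-0.21 ± 0.05, 0.00664), and FOXA3 rose (0.51 ± 0.09, 0.00163), as did PBX2 (0.17 ± 0.04, 0.00862). Of all genes 8.45% were lower and 8.25% higher after the ADARB1 siRNA. The part of these regulators in the UGT2B values was not tested.

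With BX795 4 of 17 tested regulators fell and 5 rose, where 21.9% of all genes fell and 20.2% rose, so the counts are near the background. CEBPA was at -1.81 ± 0.26 (adjusted p = 0.000685), NR1I2 at -1.10 ± 0.22 (0.00346), FOXA1 at -0.82 ± 0.17 (0.00375) and FOXA2 at -0.44 ± 0.13 (0.0173). POU2F1 was among those that rose (0.57 ± 0.12, 0.00437), whereas HNF4A (-0.23 ± 0.11, 0.107) and NR1H4 (0.43 ± 0.18, 0.0692) did not pass. With BX795 and the ADAR siRNA 6 fell, among them CEBPA (-2.13 ± 0.30, 0.000563), NR1I2 (-2.11 ± 0.27, 0.000312) and HNF4A (-0.85 ± 0.12, 0.000686), and 3 rose. There 16.0% of all genes fell and 16.9% rose. Against BX795 alone, where 2.17% of all genes fell, 2 regulators fell, HNF4A (-0.62 ± 0.12, 0.0174) and NR1H4 (-0.84 ± 0.20, 0.0426), and NR1I2 was at -1.01 ± 0.26 (0.0635). With IFNa 3 regulators rose, POU2F1 (1.04 ± 0.13, 0.00105), PBX2 and NR1H4, and 2 fell, FOXA2 and CEBPB (-0.81 ± 0.20, 0.0191), and HNF4A (0.04 ± 0.12, 0.818) did not pass.

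The pattern of UGT2B4 over the 5 contrasts with the own batch's controls had its smallest measured distance to that of NR1I2, the pregnane X receptor, among 13632 genes compared. Likeness was measured as the root mean square difference of log2 fold changes, 0.12 for NR1I2, followed by DIPK1B at 0.16 and KLB, a coreceptor for the hormone FGF19, at 0.26. The log2 fold changes of NR1I2 were -0.31, -0.21, 0.40, -1.10 and -2.11 for the ADAR siRNA, the ADARB1 siRNA, IFNa, BX795 and both agents, and those of UGT2B4 -0.21, -0.36, 0.25, -1.19 and -2.02. The other members were further from UGT2B4 than this, UGT2B10 at 0.72, UGT2B15 at 0.89 and UGT2B7 at 1.13. The nearest genes were WWOX for UGT2B7 (0.14), DNAJC25-GNG10 for UGT2B10 (0.14) and TENT5C for UGT2B15 (0.07). The gap between NR1I2 and DIPK1B is smaller than the standard errors of the batch 2 fold changes of UGT2B4 (0.16 to 0.19) and of NR1I2 with BX795 and with both agents (0.22 and 0.27), so their order is not established. For UGT2B10, with standard errors of 0.67 to 0.76 in batch 2, nothing is read from the nearest gene. Contrasts of 1 batch share their controls, so the 5 points are not independent, and the distances were not computed with the GC correction.

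**Figure D5:**
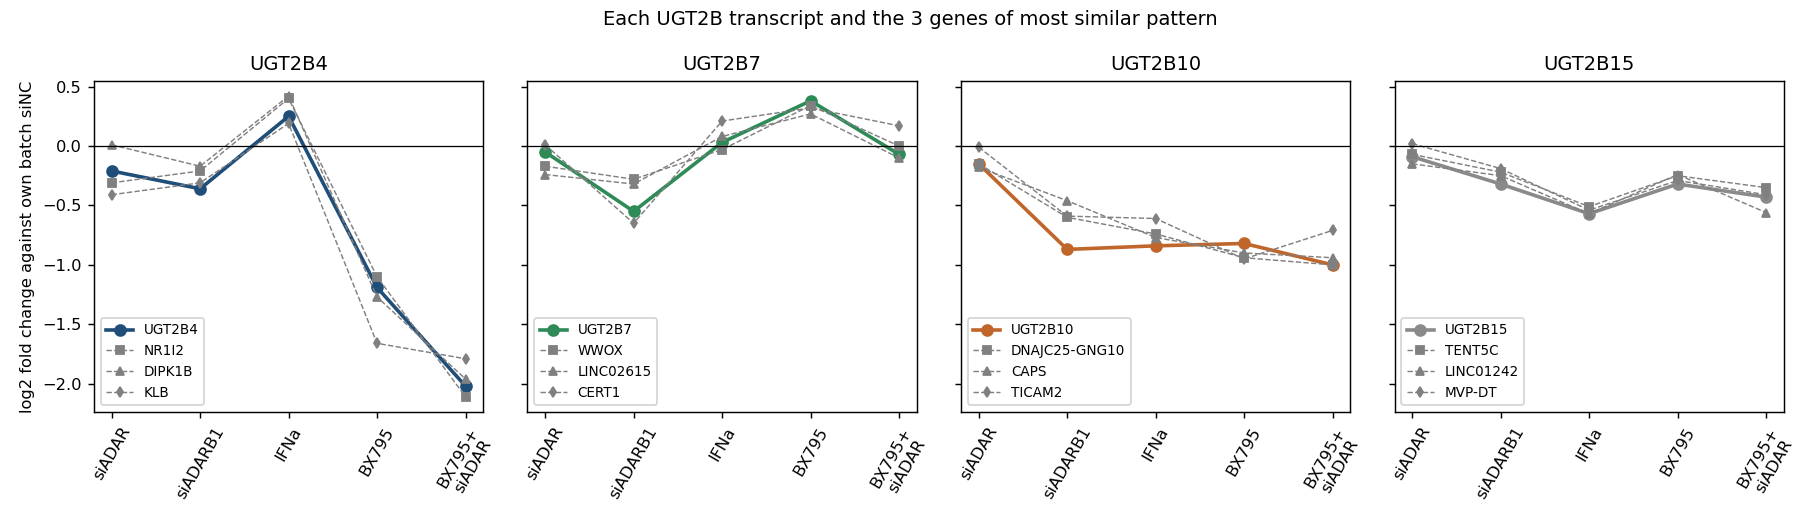
Log2 fold change against the own batch's siNC for the 4 members tested in both batches (coloured) and the 3 genes nearest to each (grey). UGT2B4 and NR1I2 run together from 0.25 and 0.40 with IFNa to -2.02 and -2.11 with BX795 and the ADAR siRNA, while UGT2B7 stays between -0.55 and 0.38.

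Reads from near-identical copies limit these values. The deposited counts of UGT2B4 were whole in all 19 libraries. Those of UGT2B7 were not whole in 5 libraries, of UGT2B10 and UGT2B11 in 10 each, and of UGT2B15 and UGT2B17 in 18 each, which shows where the quantification split reads between genes. Of windows of 50 bases, 1.85% of UGT2B4, 6.58% of UGT2B7, 17.6% of UGT2B10, 24.8% of UGT2B11 and 27.5% of UGT2B15 occur unchanged in another UGT2 transcript, but of windows of 150 bases, the read length, only UGT2B15 had any (4.88%). UGT2B15 and UGT2B17 transcripts were 88.1% identical. UGT2B11 overlaps an antisense gene, ENSG00000250696, with 154 to 367 counts per batch 1 library; the libraries were directional, but the sources used here do not state if counting used the strand.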

How the data were processed

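Expected counts per gene are the deposited values, made with STAR, Salmon and GRCh38.p14 per the submitters' processing notes. The sources used here name neither the versions, nor each tool's role, nor the annotation release. Counts were rounded to whole numbers, which 94.82% of values already matched within 0.005. Symbols were matched by Ensembl identifier for 61463 of 78894 genes. Genes passing edgeR's filterByExpr were tested within each batch (batch 1: 9 libraries, 21747 genes; batch 2: 10 libraries, 20718 genes) with quasi-likelihood tests (edgeR 4.0.16, R 4.3.3) after TMM scaling and Benjamini-Hochberg adjustment over all tested genes, a call being an adjusted p below 0.05. Each batch was fitted alone, and the spread between replicates was 6.7% in batch 1 and 14.2% in batch 2 (common biological coefficient of variation). The contrast between batches used all 19 libraries. Levels are CPM with TMM factors over all libraries, per kilobase of the longest coding GENCODE transcript where genes are compared. GC content was known for 87.7% and 88.8% of tested genes. Replicates differed by a chi-square of 5.43 to 56.79 per gene, so none was a repeat deposit.

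Members were selected by symbol, with no value in the rule, but they, the gene lists and the tests were chosen with earlier results of these data known. Lists were described by counts and medians, naming up to 4 genes of smallest p per list, the regulators HNF4A, FOXA2 and NR1H4, and the 3 genes nearest in pattern to each member, which needed a symbol and a mean of at least 1 CPM in both batches. Alternatives were a model over all libraries, the compared groups alone, DESeq2 1.42.0 (its size factors or its test), other expression filters, each library left out, the replicate number as a block, and a GC offset. The values of 1 listed regulator are not reported here.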

Additional observations from a re-analysis of the deposited data

How the results depend on the processing

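Counts of called members moved as follows. For the ADAR siRNA against siNC (3 called), the model over all 19 libraries called 0, DESeq2's own test called 4, the GC offset called 4 with or without the replicate block, and leaving out single libraries gave 1 to 3. For the ADARB1 siRNA against siNC 4 were called under each alternative, and for the ADAR against the ADARB1 siRNA 4 to 5. For IFNa (1 called) leaving out single libraries gave 0 to 1; for BX795 (2 called) 1 to 2, with 3 in the model over all 19 libraries; for both agents against siNC (2 called) 1 to 2, with 1 in the fit of only the 2 groups and 1 with no filter; and for both agents against BX795 (1 called) 0 to 1, with 2 in the model over all 19 libraries. For the difference between ADAR siRNA responses (0 called) it was 1 with DESeq2, 1 with no filter, 1 with the GC offset alone and with the replicate block, and 0 to 1 with single libraries left out.

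Whether replicate numbers pair the libraries is not in the labels, and the values do not settle it. Deviations of same-numbered libraries from their group means correlated at -0.08 to 0.11 in batch 1 and -0.22 to 0.27 in batch 2. Deviations within so small a group are tied to each other, so these correlations cannot exclude a pairing. With the replicate block 0 members were called for IFNa (UGT2B15 at -0.60, adjusted p = 0.0567), 1 for BX795 (UGT2B15 at -0.31, 0.0788) and 0 for both agents against BX795 (UGT2B4 at -0.89, 0.0929), and UGT2B10 turned to 0.09 in the difference between responses, with or without the GC offset.

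Of 538 values of single members under an alternative, 470 kept their direction and their side of the threshold, 32 lost it, 11 gained it and 25 turned in sign, none of them a called value. With the GC offset, UGT2B4 and UGT2B7 with IFNa turned to -0.08 and -0.31 (-0.13 and -0.25 with the block as well), UGT2B7 with BX795 to -0.02 (-0.03), and UGT2B11 in the difference between responses to 0.02 with the block. Without a filter UGT2B7 with both agents was 0.07. With single libraries left out, values that changed sign ranged from -0.13 to 0.23 for UGT2B7 with IFNa, -1.62 to 0.02 for UGT2B10 with BX795, -0.28 to 0.13 for UGT2B7 with both agents against siNC and -0.55 to 0.62 for UGT2B10 against BX795; in the difference between responses they ranged from -0.48 to 0.81 for UGT2B10, -1.76 to 0.48 for UGT2B11 and -0.20 to 0.08 for UGT2B15. The cause was not tested.

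Over all its alternatives, the adjusted p of UGT2B4 ran from 1.37e-07 to 0.12 for the ADAR siRNA, 0.000545 to 0.404 for the ADAR against the ADARB1 siRNA, 0.00039 to 0.286 for both agents against BX795 and 0.00224 to 0.437 for the difference between responses. That of UGT2B15 ran from 0.000256 to 0.119 with IFNa, 0.00065 to 0.371 with BX795 and 0.00041 to 0.217 with both agents, and those of UGT2B10 and UGT2B11 after the ADAR siRNA from 0.00814 to 0.572 and 0.00567 to 0.0772.

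Counts of all called genes moved too. The model over all 19 libraries called 5042 genes for the ADAR siRNA (8223 as reported), 1066 for the ADARB1 siRNA (3632), 4518 between the siRNAs (7768), 7932 for IFNa (4705) and 2201 for both agents against BX795 (758). The fit of only the compared groups called 2114 for IFNa and 4468 for both agents against siNC (6829), and the replicate block called 612, 3955 and, against BX795, 282; for the difference between responses (790) it called 459. With the GC offset and the block the counts were 1820 for IFNa, 4962 for BX795 (8712), 4241 for both agents against siNC and 1163 against BX795. Against BX795, DESeq2 called 1276, no filter 1287 and the GC offset 1891; for the difference between responses DESeq2 called 1211 and the GC offset 1419. Without IFNa replicate 1, 263 genes were called for IFNa, without siNC replicate 1 7514, without replicate 2 1847 and without replicate 3 1532; without BX795 with siADAR replicate 2, 1982 were called for both agents against siNC, and without replicate 1, 181 against BX795.

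Depth limits UGT2B10 and UGT2B11 in batch 2, where few counts gave standard errors of 0.67 to 0.76 for UGT2B10 and no test for UGT2B11.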

Other observations

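Within 300 kb of the UGT2B stretch, 50 other annotated genes lie beside the 5 members; 7 of them were tested in batch 1 and 4 in batch 2. The genes named here were chosen after their values were seen. SULT1B1, a cytosolic sulfotransferase that conjugates phenols and thyroid hormones, was at -0.74 ± 0.06 after the ADAR siRNA (log2 fold change ± SE, adjusted p = 2.48e-07 by edgeR's quasi-likelihood test) and at 0.49 ± 0.06 after the ADARB1 siRNA (3.86e-05), so it rose where 4 UGT2B genes fell. In batch 2 SULT1B1 was at -0.05 ± 0.19 with IFNa (0.886), -0.63 ± 0.18 with BX795 (0.016) and -1.68 ± 0.21 with BX795 and the ADAR siRNA (0.000294). Both agents set against BX795 alone gave -1.05 ± 0.21 for SULT1B1 (0.0168).

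YTHDC1, which encodes a reader of methylated adenosine in RNA, was called in none of the comparisons by edgeR's quasi-likelihood test, with log2 fold changes of 0.00 ± 0.04 after the ADAR siRNA (adjusted p = 0.981), 0.05 ± 0.04 after the ADARB1 siRNA (0.51), 0.25 ± 0.10 with IFNa (0.0896) and 0.18 ± 0.09 with BX795 (0.132). A transcribed pseudogene of the cluster, ENSG00000196472, had 144 counts in the batch 1 controls in all, 35 after the ADAR siRNA and 93 after the ADARB1 siRNA, with a log2 fold change of -1.81 ± 0.37 after the ADAR siRNA (adjusted p = 0.0013).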
